A study of Mus musculus with 8 samples.

Results

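Hippocampal DNA of 18-month-old C57BL/6 mice was compared between animals given an enriched environment and animals left in standard cages, for the positions of 5-hydroxymethylcytosine (5hmC). Enrichment meant 5 h a day over 4 weeks in a roomier chamber with toys, tunnels and a wheel for voluntary running. Control animals stayed in small cages with bedding, food and water. All mice share 1 genetic background, and neither group carries an engineered allele. Each group had 2 samples, each with its own list of peaks, which are stretches of genome where fragments bearing 5hmC piled up over background. The 4 aged lists held 153640 of the 393283 peaks in the 8 lists of the study. The other 4 lists come from young mice (6 weeks) in the same kinds of housing. They took no part in choosing the gained, lost and kept regions defined below, for which they serve as a readout. They did enter the limma fits of windows and widths and the choice of what was tested there. Merging all aged peaks with an overlap of 1 bp or more gave 105507 regions (156744 for all 8 lists). A region is called gained when both enriched lists and no control list have a peak in it, lost when both control lists and no enriched list do, and kept when all 4 lists do.

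5hmC is made by the TET enzymes, which oxidise 5-methylcytosine, and it can persist or be an intermediate on the way to unmodified cytosine. Neurons carry far more of it than most cells, and in brain it lies mainly over gene bodies and regulatory elements and is scarce on the X chromosome. The hippocampus forms new memories, and a richer housing is known to improve memory and raise the survival of newborn neurons there. In bulk tissue, fewer cells with a mark and less of the mark per cell cannot be told apart. The labelled tissue was not checked against marker genes, because the peaks were not assigned to genes here.

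The 4 lists differed in length and shape before any region was compared. Aged control replicates 1 and 2 held 59260 and 38000 peaks, and aged enriched replicates 1 and 2 held 25548 and 30832. Peaks spanned 58.5 and 31.4 Mb in the controls and 18.3 and 13.7 Mb in the enriched lists, so the groups did not overlap in either measure. Aged enriched replicate 2 stood apart from the rest: its median peak was 430 bp wide, against 650 to 870 bp in the other 3, and 72.4% of its peaks scored at least 100, compared with 9.92% to 24.95% elsewhere. The score is the authors' own value for each peak, and it ranks peaks within 1 list only. The number of reads is unknown, and its part in these differences was not tested. An exact permutation test of 2 samples against 2 cannot give a p below 0.333, so the region counts that follow carry no test. Instead, each count is given with those obtained when the 4 lists are paired in the other ways.

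In the 4 full lists more regions were lost than gained with enrichment, and few were kept. Both control lists alone had a peak in 9242 regions (8.76% of all regions), both enriched lists alone in 867 (0.822%), and all 4 lists in 2291 (2.17%). With 1 list left out, a peak in the remaining list of its group is enough, which loosens the rule for that group alone. Gained regions outnumbered lost ones only without enriched replicate 1, with 17975 gained, 13037 lost and 5053 kept regions. Without enriched replicate 2 there were 11243, 12030 and 6051. Without control replicate 1 there were 1977 gained and 25415 lost regions, and without control replicate 2 there were 1200 and 40658. Most regions were seen once: 73326 (69.5%) had a peak in a single list, 21836 in exactly 2 and 8054 in exactly 3. Width rose with the number of lists, from a median of 423 to 793 bp in single-list regions to 1753 bp in kept regions. Lost regions had a median width of 1062 bp and gained regions 728 bp.

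**Figure D1:**
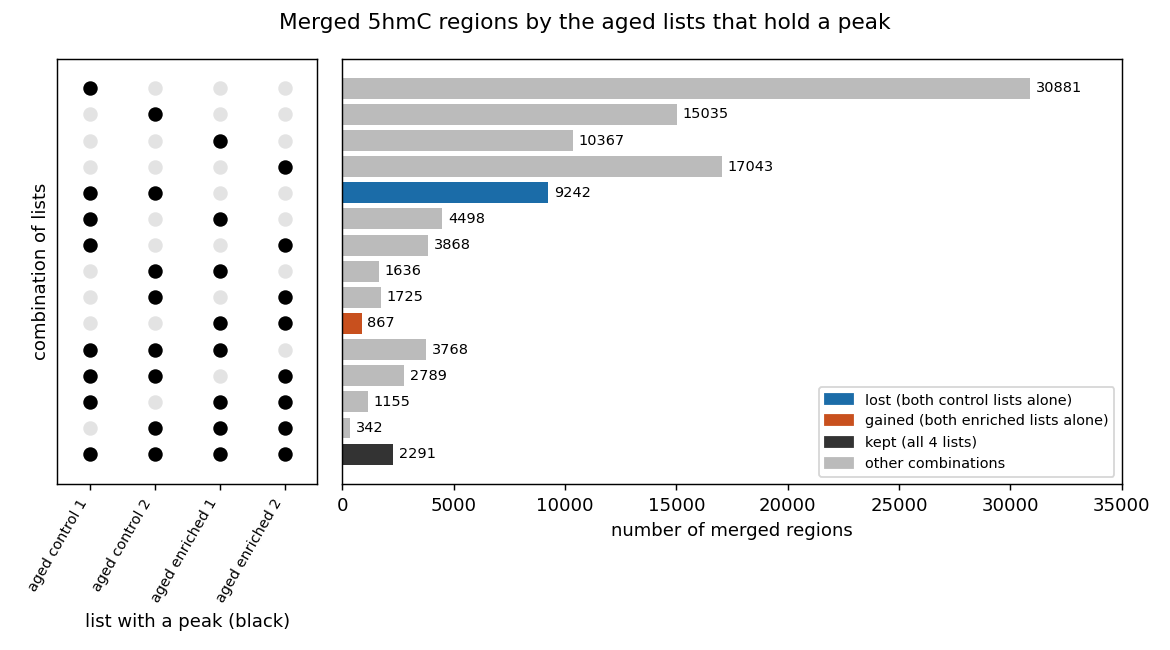
Number of merged regions (bars, x axis) for each combination of the 4 aged lists that hold a peak (black dots). The control pair alone (9242) is the largest of the 6 combinations of 2 lists and the enriched pair alone (867) the smallest.

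Housing separated more regions than the other ways of dividing the 4 lists, and the whole excess came from the control pair. Of the 21836 regions with a peak in exactly 2 lists, 46.3% fell to housing (control pair or enriched pair). The split of control 1 and enriched 1 from control 2 and enriched 2 took 28.5%, and that of control 1 and enriched 2 from the others took 25.2%. The enriched pair was the smallest of the 6 pairs with 867 regions, below the 1636 to 4498 of the mixed pairs. An excess of regions particular to enrichment was therefore not seen in these lists, while the control pair held over 2 times as many regions as any mixed pair.

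Equally long lists gave the same order of the splits with fewer lost and more gained regions. Each list was reduced to its 25548 highest-scoring peaks, the length of the shortest, which set the lowest score retained at 77.5 and 59.9 in control replicates 1 and 2 and at 91.4 in enriched replicate 2. The next peak below it had the same score to 4 digits in each of these 3 lists. There were then 4078 lost, 1265 gained and 1586 kept regions, or 3.22 lost regions for each gained one against 10.7 in the full lists. Housing took 40.4% of the regions in exactly 2 lists, and the other splits 32.1% and 27.5%. The enriched pair was again the smallest of the 6, and the control pair the largest. Of the 4078 lost regions, 3863 (94.7%) were lost in the full lists too, which is 41.8% of the full set. Of the 1265 gained regions, 778 (61.5%) were gained in the full lists, which is 89.7% of that set. Among only the 10000 highest peaks of each list there were 1782 lost, 419 gained and 434 kept regions.

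The order of the splits held among the 10000 highest peaks of each list (45.0% for housing, 30.7% and 24.3% for the others) and not at a common score. With peaks of a score of 100 or more, housing took 38.9% of the regions in exactly 2 lists, and the split of control 1 and enriched 2 from control 2 and enriched 1 took 41.7%. Enriched replicate 2 keeps 22310 peaks at that score and enriched replicate 1 keeps 2535, so such lists are very unequal in length. Setting every peak to 1000 bp around its midpoint, which removes the unequal widths, left housing at 45.8% in full lists and 40.7% in equally long lists.

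**Figure D2:**
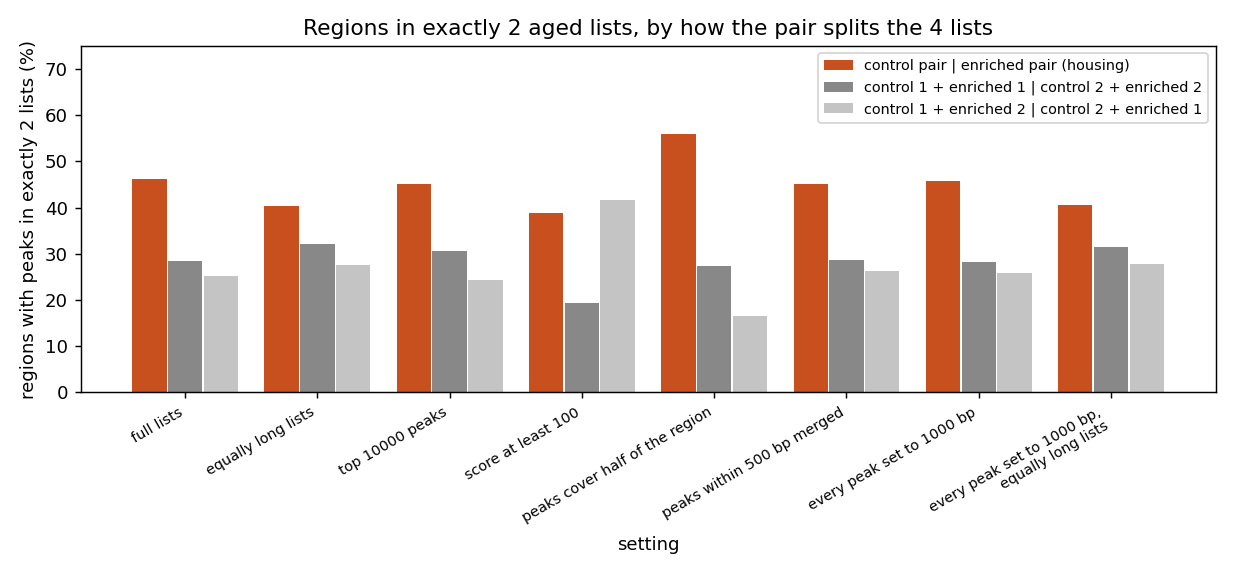
Percent of the regions with peaks in exactly 2 aged lists (y axis) that fall to each of the 3 ways of splitting the lists into pairs, for 8 settings (x axis). Housing has the tallest bar in 7 settings, and the exception is a score of at least 100 (38.9% against 41.7%).

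Pair by pair, the 2 enriched lists shared the least and the 2 control lists the most. In equally long lists, a mean of 38.7% of peaks were shared between the control replicates and 15.2% between the enriched replicates. Pairs of unlike housing lay between, with 30.9% for control 1 and enriched 1, 25.3% for control 2 and enriched 1, 22.0% for control 1 and enriched 2, and 18.9% for control 2 and enriched 2. Each enriched list thus resembled both control lists more than it resembled the other enriched list. With every peak at 1000 bp the enriched pair rose to 18.4% and stayed the lowest, next to 20.9% for control 2 and enriched 2.

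The strongest peaks were found across housing, and recovery fell with rank. Of the 100 highest peaks of control replicate 1, 100 were found in control replicate 2, 92 in enriched replicate 1 (95% exact Clopper-Pearson interval 84.8% to 96.5%) and 79 in enriched replicate 2 (69.7% to 86.5%). Of the 100 highest of control replicate 2, 100 were found in control replicate 1 and 81 in each enriched list (71.9% to 88.2%). These intervals cover counting error only. In the other direction, all 100 of the highest peaks of enriched replicate 1 overlapped a peak of control replicate 1, and 90 one of control replicate 2, but only 62 one of enriched replicate 2 (51.7% to 71.5%). The highest 100 of enriched replicate 2 were found 83 times in control replicate 1, 70 times in control replicate 2 and 62 times in enriched replicate 1. In the ranks below 5000 and down to 10000, 52.0% of the peaks of control replicate 1 were found in control replicate 2, 31.9% in enriched replicate 1 and 25.7% in enriched replicate 2. At those ranks, the peaks of enriched replicate 1 were found at 49.2% and 33.2% in the control lists and at 17.8% in enriched replicate 2. The lists searched differ in length, and a longer list finds more.

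**Figure D3:**
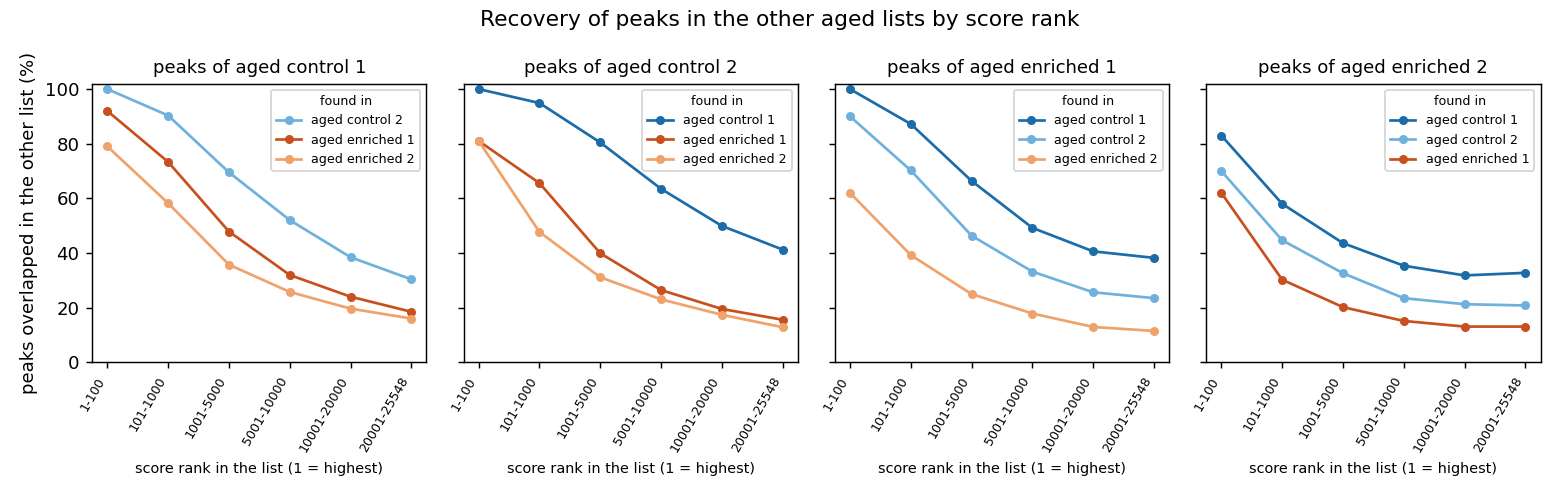
Percent of peaks of each aged list (panels) that overlap a peak of each other aged list (coloured lines), by score rank (x axis, 1 is the highest). In both enriched panels the line for the other enriched list is the lowest at every rank, starting at 62%.

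Where both control lists ranked a region high, most regions still had an enriched peak. A total of 174 regions lay in the top 1% of both control lists, and 123 of them had a peak in both enriched lists, 35 in enriched replicate 1 alone, 9 in enriched replicate 2 alone and 7 in neither. In the top 10% of both control lists there were 1657 regions, of which 40.3% had a peak in both enriched lists and 18.7% in neither. Over all 18090 regions with a peak in both control lists, 12.7% had one in both enriched lists and 51.1% in neither. Lost regions had a median percentile of 60.6 in control replicate 1 and 55.7 in control replicate 2, where 100 is the highest score of a list. The lower of their 2 percentiles had a median of 38.4, and 310 (3.35%) were in the top 10% of both lists. In kept regions the median percentile was 91.3 in control replicate 1 and 84.6 in control replicate 2. The lowest of their 4 percentiles had a median of 38.4, which is not comparable with the lower of 2. For gained regions the lower of the 2 percentiles in the enriched lists had a median of 31.6, and 3 of 867 were in the top 10% of both. Of the 233 regions in the top 10% of both enriched lists, 202 (86.7%) had a peak in both control lists.

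The 7 lost regions in the top 1% of both control lists were large stretches of 2037 to 5341 bp. The first, on chromosome 11 at 60521383 to 60526723 (mm9), had scores of 647 and 424 in control replicates 1 and 2, and peaks covered 4662 and 4766 bp of it. The nearest enriched peaks lay just outside, 0.648 kb away in replicate 1 and 0.584 kb in replicate 2. On chromosome 2 at 25295800 to 25301021, scores were 615 and 331 and peaks covered 5219 and 4663 bp, with enriched peaks at 0.446 and 0.369 kb. Both thus kept a flanking enriched peak in each replicate, although no enriched peak reached into the control interval. The third, on chromosome 18 at 65782891 to 65785333, had scores of 522 and 307, with enriched peaks 1.80 and 1.41 kb away.

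The distance to an enriched peak varied widely among the other leading lost regions. Chromosome 7 at 112765286 to 112768137 (scores 361 and 299) was 55.8 and 83.7 kb from the nearest peaks of enriched replicates 1 and 2. It is also the one among the 10 leading lost regions that lacked a peak in a young list, that of young enriched replicate 1. Chromosome 15 at 79747122 to 79750064 (scores 333 and 325) was 55.8 and 6.42 kb away, and chromosome 8 at 28231008 to 28233044 (375 and 280) was 4.38 and 1.84 kb away. The remaining 4 leading regions began on chromosome 8 at 124783626 (4812 bp wide), on chromosome 10 at 69612148 (2491 bp), on chromosome 6 at 115916347 (2793 bp) and on chromosome 13 at 48897320 (2704 bp). Their nearest enriched peaks were 1.13, 0.285, 3.08 and 1.21 kb away, in that order. The whole 10 were also lost in equally long lists, and 9 had a peak in all 4 young lists.

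Over the whole lost set, an enriched peak was often close. The nearest peak of either enriched list was within 1 kb of 1777 of the 9242 lost regions (19.2%) and within 10 kb of 76.8%, with a median gap of 3.67 kb. For gained regions the nearest control peak was within 1 kb of 226 of 867 (26.1%), with a median gap of 3.36 kb. Joining peaks up to 500 bp apart gave 8291 lost, 924 gained and 2948 kept regions. The longest runs of neighbouring lost regions held 5, on chromosome 9 at 107583882 to 107595403 and on chromosome 11 at 94506161 to 94534212 and 116670548 to 116687657. The longest gained runs held 2 and the longest kept run 4. The sets differ in size, and the run length expected from scattered regions was not computed. These runs were chosen after their values were seen.

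The leading gained regions ranked lower within their lists and were shorter than the leading lost ones. They lead a set of 867 regions and the lost ones a set of 9242, and a larger set has higher extremes. Median peaks were also narrower in the enriched lists (650 and 430 bp) than in the control lists (870 and 738 bp). The 10 leading gained regions were 655 to 1144 bp wide, and the highest lower percentile was 95.9, on chromosome 4 at 150622538 to 150623542 (scores 134 and 216 in enriched replicates 1 and 2). A peak of control replicate 1 lay 0.467 kb from it and one of control replicate 2 at 8.45 kb. The second lay on chromosome 13 at 43245268 to 43246083 (scores 103 and 213), again within 1 kb of a peak of control replicate 1 (0.857 kb). Chromosome 10 at 127760326 to 127761150 (101.4 and 199.1) had no peak in any young list, as did chromosome 2 at 134637861 to 134638570 (95.5 and 275). Young peaks were present at the other 8, in 3 lists at 5 of them and in all 4 lists at 3. Chromosome 15 at 85219353 to 85220007 (95.7 and 209), chromosome 17 at 50230716 to 50231621 (93.1 and 184) and chromosome 16 at 23521581 to 23522477 (92.6 and 168) were the 3 with a peak in all young lists. The other members of the leading 10 began on chromosome 9 at 42549785 (977 bp wide), on chromosome 1 at 13158187 (766 bp) and on chromosome 17 at 67595179 (1144 bp). Each of the 10 was gained in equally long lists as well.

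The strongest kept regions were broad and high in every list. Chromosome 10 at 79196445 to 79204030 led, with scores of 951 and 449 in the control and 337 and 389 in the enriched lists. Peaks covered 7430 and 6262 bp of it in the controls and 5070 and 2605 bp with enrichment. On chromosome 5 at 143548330 to 143550860 they covered 2531 and 2256 bp in the controls and 2156 and 1561 bp with enrichment. On chromosome 10 at 80605946 to 80608714 these were 2504 and 2198 bp against 2176 and 1453 bp, and on chromosome 8 at 73436174 to 73439410 they were 3085 and 2959 bp against 2397 and 1179 bp. At the fifth, on chromosome 10 at 79843418 to 79845735, enriched replicate 1 (2251 bp) exceeded both controls (2198 and 1921 bp) and enriched replicate 2 had 1051 bp. Enriched replicate 2 was the narrowest list at all 5.

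Kept regions were narrower with enrichment, in the same order as the median peak widths of the whole lists. The median length under peaks in a kept region was 1501 and 1088 bp in control replicates 1 and 2, and 852 and 477 bp in enriched replicates 1 and 2. Both enriched lists were narrower than both control lists in 1510 of 2291 kept regions (65.9%), and both were wider in 5. Replicates differed in the same way: enriched replicate 2 was narrower than enriched replicate 1 in 2061 of the 2291 kept regions, and control replicate 2 narrower than control replicate 1 in 77.7%.

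**Figure D4:**
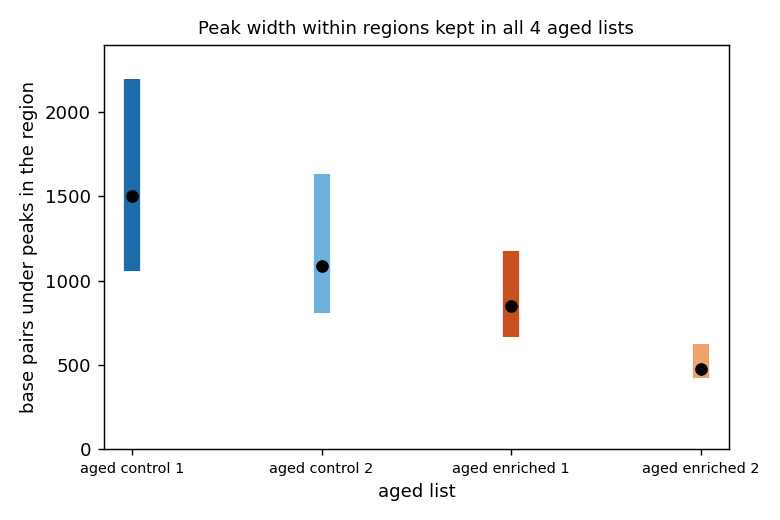
Base pairs under peaks (y axis) within the 2291 regions kept in all 4 aged lists; the bar spans the middle 50% of regions and the dot is the median. Medians fall from 1501 bp in aged control replicate 1 to 477 bp in aged enriched replicate 2.

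Once each list was centred on its own median, width differed at 2 regions. In the 2058 regions with a peak in all 8 lists, limma called 1 region narrower and 1 wider in aged enriched samples (0.0486% of the regions tested in each direction), with 365 at an unadjusted p under 0.05. The narrower one lay on chromosome 2 at 25295697 to 25304713 and overlaps the second of the leading lost regions. Both calls draw on the same aged peaks, so the width call is not a separate result. Its enriched peaks lie outside the lost interval, to which young peaks joined them in the merge of all 8 lists. Peaks covered 6953 and 7318 bp of this narrower region in the control lists and 662 and 357 bp in the enriched lists (log2 difference −2.66 ± 0.38 SE, limma adjusted p = 0.0149). In the young lists they covered 8126 and 7918 bp in controls and 5735 and 8250 bp with enrichment. The difference between ages in this effect was −2.53 on the log2 scale and did not pass (limma adjusted p = 0.190). The wider one, on chromosome 11 at 80414674 to 80415679, had 475 and 514 bp in control and 719 and 454 bp in enriched lists, so the groups overlapped before centring (1.42 ± 0.23 SE, limma adjusted p = 0.0318). The wider call ended under quantile normalization, and without aged enriched replicate 1 limma called 25 wider and 35 narrower. Without any centring limma called 442 regions narrower and 0 wider, with a median log2 difference of −1.04. Limma's weights for the lists, which fall as spread rises, were 0.489 in aged enriched and 0.91 in aged control lists. They were 1.24 in young control and 1.82 in young enriched lists. The part of this unequal spread in the width calls was not tested. Leaving out aged control replicate 1, young control replicate 1 or young control replicate 2 ended both calls. So did leaving out aged control replicate 2 for the narrower region and aged enriched replicate 2 for the wider.

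Most lost and most gained regions also had a 5hmC peak in young mice, as did most aged regions. Over all 105507 regions 36.5% had no young peak and 13.9% had one in all 4 young lists. A young peak was present in all but 1150 of 9242 lost regions (12.4% without one, exact Clopper-Pearson interval 11.8% to 13.1%) and in all but 191 of 867 gained regions (22.0%, 19.3% to 24.9%). Regions of the 4 mixed pairs lacked a young peak in 16.5% to 18.8% of cases, and kept regions in 0.655% (0.367% to 1.08%). These intervals cover counting error over regions only, not the spread between samples. All 4 young lists had a peak in 27.5% of lost, 14.3% of gained and 75.6% of kept regions. Among 2-list regions 800 to 1000 bp wide the sets came together: 15.9% of lost and 18.1% of gained regions lacked a young peak, with 15.1% to 19.5% in the mixed pairs. Width thus moved with the readout in young mice, and the sets differed less within 1 band of width.

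Each young list found aged regions in the order of its own length. Young control replicates 1 and 2 held 43709 and 78980 peaks, and young enriched replicates 1 and 2 held 57492 and 59462. Of the lost regions, 48.9% and 72.8% had a peak in young control replicates 1 and 2, and 56.9% and 59.8% in young enriched replicates 1 and 2. For gained regions these were 32.9% and 58.2% in the young control and 45.8% and 46.4% in the young enriched lists. Over all aged regions they were 28.7% and 47.4% in the young control and 35.4% and 37.0% in the young enriched lists, the same order, so these shares give no comparison of housing in young mice.

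**Figure D5:**
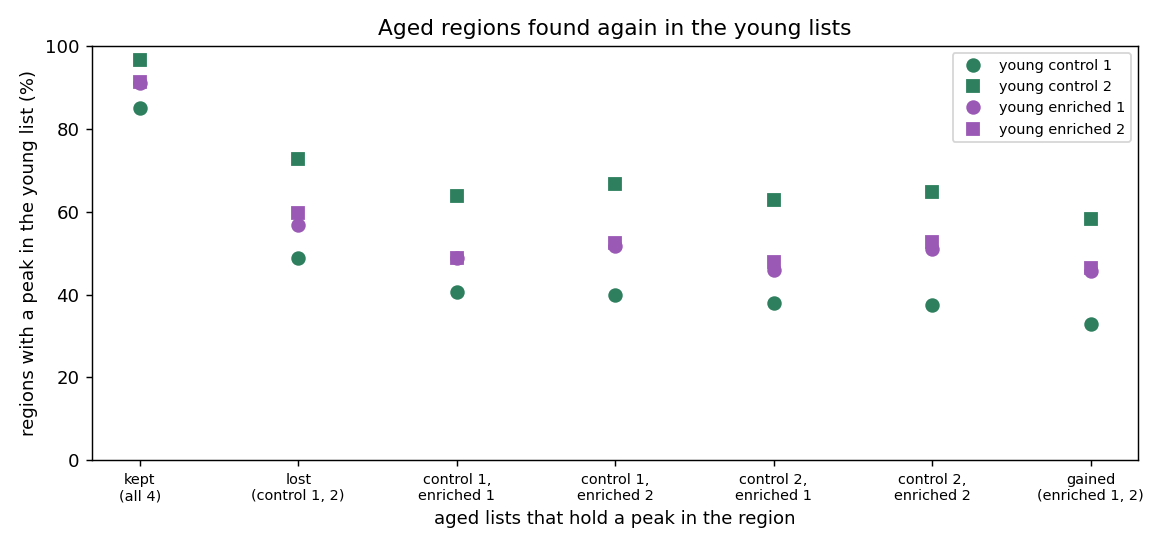
Percent of aged regions (y axis) with a peak in each of the 4 young lists (symbols), for kept regions and for regions with a peak in exactly 2 aged lists (x axis). The lists with the fewest and the most peaks (young control replicates 1 and 2) bound the others in every set, and lost regions (48.9% to 72.8%) lie above gained regions (32.9% to 58.2%).

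Lost and kept regions were a larger share of aged regions where young mice had many peaks, and gained regions were not. Windows of 1 Mb on the autosomes were ordered by their mean number of peaks in the young lists and divided into 4 equal classes of 527 windows. From the sparsest to the densest class, lost regions rose from 2.63% to 10.2% of the aged regions there and kept regions from 0.215% to 2.85%. Gained regions went from 0.904% to 0.755%, although 466 of them lay in the densest class. The shares in the sparsest class rest on 21 gained, 61 lost and 5 kept regions. Of the 6 sets of regions in exactly 2 lists, the gained set had the lowest ratio between the densest and the sparsest class (0.835), against 3.90 for the lost set and 1.60 to 2.63 for the mixed pairs. In equally long lists it was again the lowest, at 1.02, against 8.41 for the lost set and 2.17 to 5.43 for the mixed pairs.

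Chromosomes showed the same order. Lost regions were the largest share of the aged regions on chromosome 8 (656 of 6501 regions, 10.1%) and the smallest among autosomes on chromosome 3 (331 of 4726 regions). Gained regions were the largest share on chromosome 13 (1.10%) and the smallest on chromosome 17 (0.656%), so that lost regions outnumbered gained ones 6.49 to 1 on chromosome 3 and 14.8 to 1 on chromosome 11. Across the 19 autosomes, Spearman's rho with the mean number of young peaks per Mb was 0.78 for the percent lost, 0.78 for the percent kept and −0.81 for the percent gained. Chromosomes share their libraries, and these values describe these lists only. The X chromosome held 43 aged regions, with 0 lost, 0 gained and 1 kept. The last 5 Mb before the final peak of each autosome held 8.21% of lost, 8.34% of kept and 6.57% of gained regions, against 6.73% of all regions.

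Relative to list length, the windows that limma called higher were sparse in young peaks and those called lower were dense. Of 1548 windows of 1 Mb tested, 37 (2.39%) had more and 19 (1.23%) had fewer peaks in aged enriched than in aged control lists. The counts were 13 and 8 with a pseudocount in proportion to list length and 9 and 2 after quantile normalization. In equally long lists they were 44 and 67, of 1224 windows tested. In the main fit the typical window leaned towards higher in aged enriched lists, by 0.111 on the log2 scale (median of 1548 windows). The part of this shift in the calls was not tested. On simulated data this fit called more unchanged windows than the threshold implies, so its adjusted p-values may be too small. The simulation gave every list the same spread beyond counting error and scaled by totals that its changed windows raised. It therefore does not measure the rate of false calls in the real lists. The window fit shares its spread among the 4 groups, young lists included. For widths the weights were lowest, and the spread so largest, in the aged enriched lists. The part of unequal spread in the window calls was not tested. In the 37 higher windows 2.24% of the aged regions were gained and 3.33% lost. The 19 lower windows had 0.135% gained and 14.2% lost, against 0.821% and 8.92% over all windows tested. These shares come from the same lists as the calls. Young lists had a median of 18.8 peaks in the higher and 61.3 in the lower windows, against 31.5 over all. They also entered this fit and its filter, so they are not an independent readout of these windows. The fixed pseudocount of 1 peak raises sparse windows most in the shorter lists, and its part in this contrast was not tested. These medians were not computed for the calls of the other settings.

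In the 37 windows called higher, gained regions were few, yet a larger share than over all windows tested (2.24% against 0.821%). Kept regions were a smaller share there (1.41% against 2.22%). These shares come from the same lists as the calls. At 30 to 31 Mb of chromosome 15 the control lists had 23 and 13 peaks and the shorter enriched lists 21 and 26 (log2 difference 1.17 ± 0.21 SE, limma adjusted p = 0.00246). Of its 67 regions 2 were gained, 0 lost and 0 kept. At 25 to 26 Mb of chromosome 8 there were 12 and 6 against 14 and 19 peaks (1.62 ± 0.30 SE, limma adjusted p = 0.00291), and 2 of 43 regions were gained. Neighbouring windows from 91 to 93 Mb of chromosome 15 had 1 gained region each, of 41 and 51. At 6 to 7 Mb of chromosome 16, with 3 and 1 peaks in the control and 7 and 14 in the enriched lists, none of 24 regions was gained, so the peaks of the enriched replicates there did not overlap.

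The 5 leading windows called lower differed in their share of lost regions, which was 8.92% over all windows tested. At 172 to 173 Mb of chromosome 2 the control lists had 84 and 47 and the enriched lists 21 and 20 peaks (log2 difference −0.81 ± 0.19 SE, limma adjusted p = 0.0220), and 16 of 121 regions were lost and 0 gained. Peaks at 25 to 26 Mb of chromosome 17 numbered 74 and 58 against 23 and 20 (−0.81 ± 0.19 SE, limma adjusted p = 0.0220), with 19 of 113 regions lost and 6 kept. At 148 to 149 Mb of chromosome 7, 12 of 88 regions were lost and 1 was kept. In the window from 147 to 148 Mb of chromosome 4, 15 of 132 were lost, and in that from 73 to 74 Mb of chromosome 15, 7 of 98 were lost and 5 kept, a smaller share lost than over all windows. After quantile normalization only the window on chromosome 7 passed among these 5 (limma adjusted p = 0.0117, and 0.0514 to 0.0645 for the other 4). In equally long lists the windows on chromosomes 15 and 2 did not pass (limma adjusted p = 0.0601 and 0.0935).

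A single window passed the test of a difference between ages, and the call was not stable. Of the 1548 windows, that at 6 to 7 Mb of chromosome 16 (0.0646%) had a housing difference in aged samples that differed from the one in young samples, by 3.45 on the log2 scale (limma adjusted p = 0.0204), with 175 windows at an unadjusted p under 0.05. Young control lists had 11 and 13 peaks there and young enriched lists 9 and 5. The call ended after quantile normalization, with the proportional pseudocount, and on leaving out either aged control list or any 1 young list. For the other 9 windows named above the test of this difference gave limma adjusted p of 0.219 to 0.350. Window calls depended on single lists: leaving out aged control replicate 2 left 0 higher and 0 lower (225 at an unadjusted p under 0.05). The limma fit lacking aged control replicate 1 had 17 higher and 2 lower windows. Dropping aged enriched replicate 1 raised these to 150 and 138, and dropping aged enriched replicate 2 to 54 and 37. With 1 young list left out there were 6 to 10 higher and 1 to 2 lower windows. A lone list in a group is assumed to vary like the other groups. A limma fit of the 4 aged lists alone called 0 windows, with 216 at an unadjusted p under 0.05. So did peaks with a score of at least 100 (139, of 881 windows tested).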

How the data were processed

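5hmC-bearing DNA was captured after chemical labelling and sequenced. Per the submitters' processing notes, the tools were CASAVA 1.4, Bowtie 0.12.9 and MACS 1.4.2 with build mm9. Each deposited list gives the position of every peak and a score, the authors' value for the peak; caller settings, background library and read depth: not given in the sources used here. Score 50 was about the lowest in each list. Labels do not say whether the replicates were separate mice, so each p-value reflects the spread among these samples alone, which may be technical.

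Merging, overlaps (at least 1 bp) and ranks (ties in genome order) were computed in Python 3.11.15 with pandas 2.3.3, and limma 3.58.1 in R 4.3.3 was fitted with an intensity trend to all 8 samples as 4 groups. Windows of 1 Mb with a mean of at least 5 peaks were tested on log2 peaks relative to list length (pseudocount 1 peak); widths on the log2 scale. Adjustment was by Benjamini-Hochberg, threshold 0.05. On simulated data the window fit recovered changed windows but called more unchanged ones than the threshold implies. Members and named regions (the 10 leading lost and gained and 5 leading kept by lowest within-list percentile, and the 5 windows or widths with the smallest p per direction among those called) were chosen with earlier results of these data known. Gene annotation and sequences of build mm9 were not used here, so the planned gene lists and sequences are left out. Alternatives varied list length, score, overlap, merging, width, normalization, pseudocount, filter, block and samples.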

Additional observations from a re-analysis of the deposited data

Results flagged for a closer look

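The window at 6 to 7 Mb of chromosome 16 is singled out because its housing difference was not the same in aged and young lists, by limma's test of the difference itself (3.45 on the log2 scale, adjusted p = 0.0204). Peaks there numbered 3 and 1 in aged control, 7 and 14 in aged enriched, 11 and 13 in young control and 9 and 5 in young enriched lists. It rests on few peaks, and it had too few to be tested in equally long lists. The call ended after quantile normalization, with a pseudocount in proportion to list length, and without either aged control list or any 1 young list.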

How the results depend on the processing

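Counts of regions moved with list length and score. Among the top 10000 peaks there were 419 gained, 1782 lost and 434 kept regions, and with a score of at least 100 there were 188, 1804 and 375. Equally long lists had 4078 lost regions, and with every peak at 1000 bp (chosen after seeing the data) 1485 gained and 4079 lost. Requiring the peaks of a list to cover 50 percent of a region left 259 kept. Leaving out 1 aged list, where the remaining list of its group is enough to count, gave 1200 to 17975 gained, 12030 to 40658 lost and 2413 to 6051 kept regions. Gained regions (17975) outnumbered lost ones (13037) without aged enriched replicate 1, and lost regions outnumbered gained ones without each of the other 3.

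By limma, windows higher and lower were 44 and 67 in equally long lists (1224 windows tested). They were 0 and 0 in aged samples only and with a score of at least 100 (881 windows tested for the latter). Of the 1548 windows, 9 and 2 were called after quantile normalization, and 13 and 8 with a pseudocount in proportion to list length. A filter at a mean of 1 peak gave 56 higher, of 1909 windows tested. Leaving out 1 of the 8 lists gave 0 to 150 higher and 0 to 138 lower. Numbers pair no samples by the labels; with the replicate number as a block (replicate block) there were 46 higher and 27 lower windows and the 2 width calls were 1 wider and 1 narrower. Windows that differed between ages numbered 0 after quantile normalization and with the proportional pseudocount, and 0 to 84 without 1 list. They also numbered 0 at a score of 100 and in equally long lists, where the window on chromosome 16 was not tested. For width, 0 were wider without centring and after quantile normalization and 2 in aged samples only, and 442 were narrower without centring. Leaving out 1 list gave 0 to 25 wider, 0 to 35 narrower and 0 to 1 that differed between ages. The cause of these shifts was not tested, and depth is unknown.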
